A study of Mus musculus with 5 samples.

Results

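The subject here is a module of 48 genes that encode histone deacetylases and the subunits of the corepressor complexes that carry them, chosen by symbol from the 35976 genes of the count tables. All 48 had a row, and 47 passed the filter on low counts. The exception was Hdac9. The RNA came from mouse thymocytes that had matured to the CD8 single-positive stage and were purified by flow cytometry, and 5 libraries were sequenced. Of these, 2 came from Runx3 +/+ mice, with a pair of unaltered alleles, and 3 from Runx3 +/WRPW mice, which carry 1 altered allele named WRPW beside 1 unaltered one. The labels give no treatment, age, sex or sorting gate, and do not say how the allele was made or whether each library is a separate animal, so each p-value rests on the spread between these libraries alone, which may be technical.

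As background, histone deacetylases remove acetyl groups from lysines of histone tails and so help to close chromatin. Most do not bind DNA but work inside larger assemblies: the class I enzymes Hdac1 and Hdac2 in the Sin3, NuRD and CoREST complexes, and Hdac3 in the NCoR complex. Runx3 is a DNA-binding factor of the CD8 lineage that can silence genes through corepressors, among them the Groucho/TLE proteins, which in turn recruit deacetylases, and a WRPW peptide is the form of the TLE-binding motif found in Hes repressors. The comparison asks whether transcripts of this machinery differ between the genotypes.

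Total counts ran from 15715242 to 43758550 per library. Runx3 +/WRPW library 2 stood apart: it had counts at 27414 genes, against 17237 to 18967 in the others, and at 7350 genes it alone had counts, against 105 to 244 for each other library. Genes below the count filter took 1.19% of its counts and 0.0538% to 0.0605% of the others. The cells carried T cell markers at high level (Cd8a at 2202 to 2635 CPM over the 5 libraries, CPM being counts scaled to 1000000 per library). Of the 7 T cell and CD8 identity markers tested, 6 had a log2 fold change below 0, beside 6389 of all 13666 tested genes. Without overlap, 5 of them lay below the controls, beside 23.8% of all tested genes. The median log2 fold change of the 7 was -0.25, and Cd3d passed the edgeR test as lower (adjusted p = 0.039). The CD4 lineage list summed to 1.17 and 6.35 CPM in Runx3 +/+ and 0.69 to 0.891 CPM in Runx3 +/WRPW. Of 19 cell division markers, 18 were called lower in Runx3 +/WRPW, beside 7.33% of all tested genes. The 19 summed to 1309 and 1395 CPM in Runx3 +/+ and 539 to 563 CPM in Runx3 +/WRPW. Among 6 B cell markers, Cd79b was lower by 3.88-fold (edgeR adjusted p = 0.00426) and Cd79a did not pass (edgeR adjusted p = 0.53). Ebf1 was at 7.22 CPM in Runx3 +/WRPW library 2 and at no more than 0.138 CPM elsewhere. The B cell list summed to 9.76 and 9.79 CPM in Runx3 +/+. In Runx3 +/WRPW libraries 1, 2 and 3 it summed to 4.32, 12.6 and 3.17 CPM, so the genotypes overlapped. Runx3 itself was at 273 and 357 CPM in Runx3 +/+ and at 394, 341 and 422 CPM in Runx3 +/WRPW, and the count per gene does not tell the alleles apart.

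Most of the corepressor module did not pass the test, and the members that did changed by 1.25-fold to 2.05-fold. In Runx3 +/WRPW, 4 members were lower (Hdac7, Hdac10, Mta1 and Mta2) and 4 higher (Hdac5, Rcor3, Chd3 and Mbd2), and 39 did not pass. The test was edgeR's quasi-likelihood test with a Benjamini-Hochberg adjusted p under 0.05 over all 13666 genes tested. The 8 members called are 17.0% of the 47 tested, beside 13.6% of all tested genes, so the module changed about as often as the background. By direction, 8.51% of the members were lower beside 7.33% of all genes, and 8.51% higher beside 6.24%. Among the 9146 tested genes with a mean level of at least 8.08 CPM, the 10th percentile of the members, 16.4% were called.

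The median log2 fold change of the members, Runx3 +/WRPW over Runx3 +/+, was -0.07, and that of all tested genes was 0.02. The median size of the change, sign aside, was 0.15 for the members and 0.22 for all genes. Among the 47 members, log2 fold changes ran from -1.03 for Hdac10 to 0.80 for Hdac11. The libraries of the genotypes did not overlap for 28 members, which is 59.6% beside 48.5% of all tested genes. They lay below the controls for 18 members (38.3% beside 23.8%) and above for 10 (21.3% beside 24.7%). An unadjusted p under 0.05 was reached by 18 members, or 38.3%, beside 29.8% of all genes. Only Hdac7 and Rcor3 stayed past the threshold whichever single library was left out.

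How many members passed varied with the fit, and so did the share of all genes. Without Runx3 +/+ library 1, 14.9% of the members passed beside 9.47% of all genes, and without Runx3 +/+ library 2, 6.38% beside 4.95%. Without Runx3 +/WRPW library 2, the one that stood apart, Hdac7, Hdac5 and Rcor3 passed, 6.38% of the members beside 9.86% of all genes. The shares were 4.26% beside 5.57% without Runx3 +/WRPW library 1, and 6.38% beside 6.86% without Runx3 +/WRPW library 3. DESeq2 called 23.4% of the members beside 19.8% of all genes, a filter of 1 CPM gave 17.4% beside 17.3%, and no filter 8.51% beside 3.77%. With no filter the member share is still over the 47 members tested above, without Hdac9, while the share of all genes is over 28583. Of those genes, 7350 had counts in Runx3 +/WRPW library 2 only, so these shares rest on unlike sets. A minimum fold of 1.2 gave 6.38% beside 6.34%, and a replicate block 2.13% beside 5.52%. The members' share was 17.0% with RLE factors (beside 13.3%), upper-quartile factors (13.7%), robust dispersion (13.9%), limma-voom (14%) and library totals over all rows (13.2%).

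**Figure D1:**
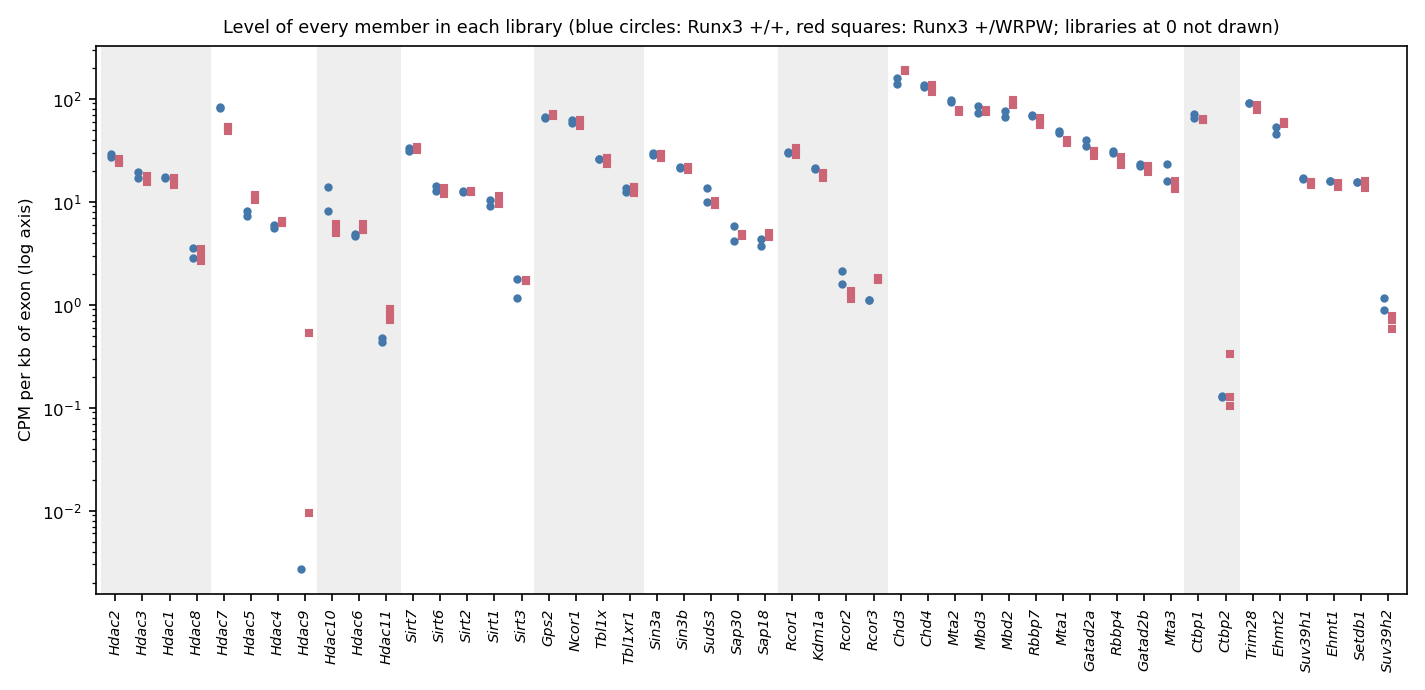
Level of each of the 48 members in CPM per kilobase of exon (log axis), blue circles for the 2 Runx3 +/+ libraries and red squares for the 3 Runx3 +/WRPW libraries, with alternate grey and white bands for the role groups. Chd3 and Chd4 lie highest, and Hdac9 has a level above 0.01 in Runx3 +/WRPW library 2 only; libraries at 0 are not drawn.

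Levels between genes are compared here as CPM per kilobase of annotated exon, taken over all isoforms of a gene, which lowers the level of a gene with long alternative exons. On that scale the most abundant members were the NuRD remodellers Chd3, at 149 in Runx3 +/+ and 187 in Runx3 +/WRPW, and Chd4, at 133 and 127. By the mean over all 5 libraries Trim28, a scaffold of heterochromatin silencing, followed, at 90.6 and 82.4, although in each genotype another member besides Chd3 and Chd4 lay above it. The lowest members were Hdac9, Ctbp2 (0.128 and 0.186) and Hdac11 (0.455 and 0.794). Mta2, at 95.5 and 76.4, lay above Trim28 in Runx3 +/+ and below it in Runx3 +/WRPW. Mbd2 averaged 71.1 and Mbd3 79.2 in Runx3 +/+, a difference within the spread of the libraries, while Mbd2 was above both Mbd3 and Trim28 in Runx3 +/WRPW, at 91.4 against 75.6 for Mbd3.

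Of the class I deacetylases, 4 of 4 did not pass the test, with log2 fold changes of -0.17 to -0.07. Of all tested genes 13.6% passed. Hdac2, the most abundant of them per length, read 130 and 122 CPM in Runx3 +/+, and 112, 107 and 116 CPM in Runx3 +/WRPW. Its libraries do not overlap between genotypes, and its log2 fold change was -0.17 (95% interval -0.33 to -0.01; edgeR adjusted p = 0.142). Hdac1 had a log2 fold change of -0.11 (95% interval -0.30 to 0.09) and Hdac3, the catalytic subunit of the NCoR complex, one of -0.13 (95% interval -0.34 to 0.08). Hdac8, an X-linked enzyme outside these complexes, was low, at 15.6 ± 2.55 CPM (SD, n = 2) and 14.9 ± 1.88 CPM (SD, n = 3).

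The class IIa deacetylases shuttle between nucleus and cytoplasm under signal-dependent phosphorylation. Of the 3 tested, Hdac7 was called lower and Hdac5 higher, and Hdac4 did not pass, beside 13.6% of all tested genes called. Hdac7, the class IIa enzyme best known in thymocytes, read 546 and 560 CPM in Runx3 +/+, and 359, 357 and 330 CPM in Runx3 +/WRPW. All 3 altered libraries lay far below both controls. The log2 fold change was -0.66 ± 0.07 (SE), or 1.58-fold lower (95% interval 1.41 to 1.78; edgeR adjusted p = 0.00352), and over the fits that left out 1 library it was -0.70 to -0.62 with adjusted p from 0.0096 to 0.0246.

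Hdac5, another member of the class, was at 64.5 and 70.7 CPM in Runx3 +/+ and at 102, 90.7 and 96.5 CPM in Runx3 +/WRPW. The genotypes do not overlap, and the log2 fold change was 0.51 ± 0.08 (SE), or 1.43-fold higher (edgeR adjusted p = 0.0119). The call was lost narrowly without Runx3 +/+ library 1 (adjusted p = 0.0516) or Runx3 +/WRPW library 1 (adjusted p = 0.052), at log2 fold changes of 0.45 and 0.46. Hdac4 did not pass, at 91.2 ± 4.66 CPM (SD, n = 2) and 100 ± 2.86 CPM (SD, n = 3), with an interval of its log2 fold change from -0.01 to 0.29. An exonic overlap with the lincRNA gene Gm26720 on the opposite strand covers 22.4% of the Hdac4 exons, and without a stated strand setting their reads cannot be told apart.

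Hdac7 lies on chromosome 15, 97792661 to 97844502, minus strand, and Hdac5 on chromosome 11, 102195747 to 102230172, minus strand (mm10). Their promoter windows, 250 bases before to 50 after an annotated start in RefSeq for GRCm38.p6, are shown because these related genes changed in opposite directions. RefSeq gives 4 starts for Hdac7, of which the one farthest upstream is printed (chr15:97844453-97844752, minus strand), and 1 for Hdac5 (chr11:102230123-102230422, minus strand). Capitals mark the letters of 4 motifs searched on both strands. These are E2F, spelled TTTCCCGC or TTTGGCGC, and CHR, an element of cell cycle promoters spelled TTTGAA by one common form and also searched as TTTAAA. The others are CCAAT, bound by NF-Y, and the core letters read by Runx factors, TGTGGT. None of the spellings contains another. The windows read, 5′ to 3′:
Hdac7: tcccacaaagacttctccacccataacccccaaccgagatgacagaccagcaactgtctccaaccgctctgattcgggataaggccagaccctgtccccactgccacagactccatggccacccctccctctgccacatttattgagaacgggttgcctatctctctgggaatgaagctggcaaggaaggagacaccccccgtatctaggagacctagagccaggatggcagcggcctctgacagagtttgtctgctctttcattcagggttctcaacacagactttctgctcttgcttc
Hdac5: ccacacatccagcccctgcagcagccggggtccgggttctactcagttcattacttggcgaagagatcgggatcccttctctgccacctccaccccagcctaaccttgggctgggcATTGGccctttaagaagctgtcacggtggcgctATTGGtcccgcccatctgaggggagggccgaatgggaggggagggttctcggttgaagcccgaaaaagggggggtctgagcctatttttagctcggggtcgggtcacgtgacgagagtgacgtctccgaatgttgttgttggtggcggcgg
None of the 4 motifs is in the Hdac7 window, nor in the other 3 windows of that gene. The Hdac5 window holds CCAAT on the other strand (ATTGG) at positions -134 and -101 from the start.

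Class IIb and class IV gave 1 call among 3 genes, beside 13.6% of all tested genes. Hdac10, a class IIb enzyme that acts on polyamines, was at 27.2 and 46.8 CPM in Runx3 +/+ and at 17.1, 20.4 and 16.9 CPM in Runx3 +/WRPW. The controls differ widely between themselves, and both lie above the altered libraries. Hdac10 was the only member both called and changed by at least 2-fold, beside 4.99% of all tested genes. The log2 fold change was -1.03 ± 0.23 (SE), or 2.05-fold lower (95% interval 1.39 to 3.01, edgeR adjusted p = 0.0361). Leaving out Runx3 +/+ library 1 made it -1.37 and leaving out Runx3 +/+ library 2 made it -0.59, and the call held only in the former of the 5 fits that left out 1 library (adjusted p = 0.0597 to 0.105 in the other 4).

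Hdac6, the tubulin deacetylase of class IIb, had a log2 fold change of 0.23 (95% interval 0.00 to 0.47; edgeR adjusted p = 0.163). Hdac11, the sole class IV enzyme, was low, at 1.82 and 1.68 CPM against 2.93, 3.49 and 2.76 CPM. Its libraries do not overlap, but its log2 fold change of 0.80 ± 0.30 (SE) did not pass (edgeR adjusted p = 0.135). On the opposite strand, the unclassified gene Gm44002 overlaps 15.4% of the Hdac11 exons, and without a stated strand setting their reads cannot be told apart. Hdac9 had 0 and 1 counts in the Runx3 +/+ libraries and 0, 124 and 3 counts in Runx3 +/WRPW libraries 1, 2 and 3. Nearly all of its counts thus sit in the library that has counts at many more genes than the rest.

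**Figure D2:**
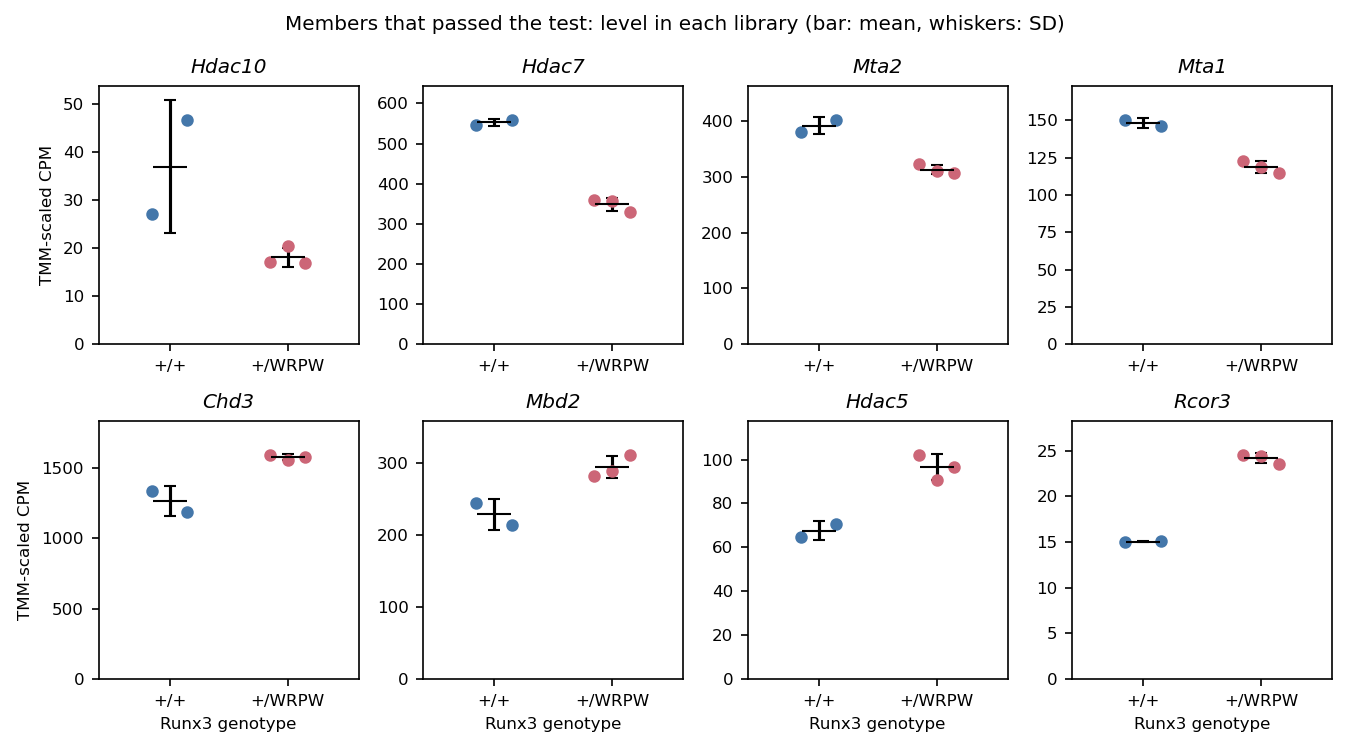
TMM-scaled CPM of the 8 members that passed the test, 1 point for each library, 2 for Runx3 +/+ and 3 for Runx3 +/WRPW, with the mean as a bar and the SD as whiskers. Axes start at 0; the groups do not overlap in any panel, and the Runx3 +/+ libraries of Hdac10 lie at 27.2 and 46.8 CPM.

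Within the family of 11 HDAC genes, Hdac7 held the largest part of the transcripts in every library. By summed CPM per kilobase its share was 45.9% and 45.7% in Runx3 +/+ and 36.7%, 37.4% and 35.1% in Runx3 +/WRPW. The share of Hdac5 was 4.18% and 4.45% against 8.04%, 7.30% and 7.91%. These shares are ratios within a library and do not depend on scaling between libraries, except that a fall of 1 gene raises the share of the rest. The 4 class I genes accordingly held 37.6% ± 2.10 (SD, n = 2) of the family in Runx3 +/+ and 42.9% ± 1.24 (SD, n = 3) in Runx3 +/WRPW, although their summed level was lower, at 67.1 ± 2.32 and 60.9 ± 1.43 CPM per kilobase. The summed level of all 11 was 178 ± 3.81 CPM per kilobase (SD, n = 2) in Runx3 +/+ and 142 ± 2.93 (SD, n = 3) in Runx3 +/WRPW. Without Hdac7 the sum was 96.7 ± 2.35 and 90.1 ± 1.54. These sums and shares are given as descriptions, without a test; the smallest two-sided p of an exact permutation test of 2 against 3 libraries is 0.2.

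**Figure D3:**
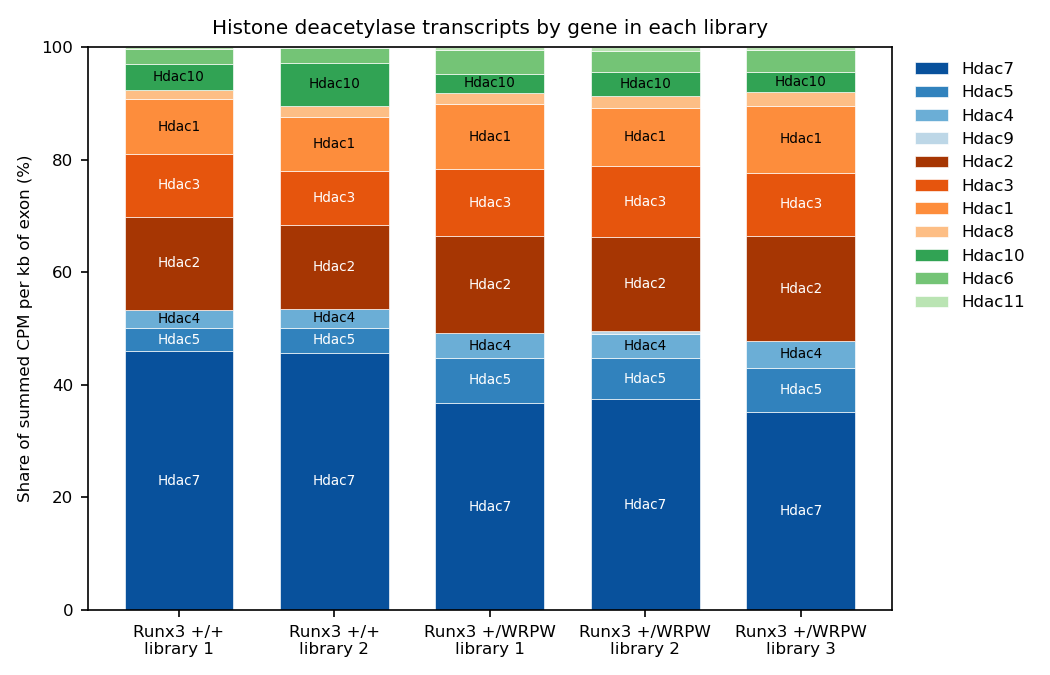
Share (%) of the summed CPM per kilobase of the 11 histone deacetylase genes held by each gene, 1 bar for each library, blues for class IIa, oranges for class I and greens for classes IIb and IV. The Hdac7 block takes 45.9% and 45.7% in Runx3 +/+ and 35.1% to 37.4% in Runx3 +/WRPW.

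The double-positive thymocyte, the stage before CD8 commitment, also expresses Hdac7. Of 6 markers of that stage, Dntt was lower by 3.57-fold, from 12.2 ± 0.64 CPM (SD, 2 libraries) to 3.32 ± 1.68 CPM (SD, 3 libraries; edgeR adjusted p = 0.028), while Rag1 was at no more than 0.644 CPM in any library and Rag2 and Ptcra, at 0 to 0.092 CPM, were at or near 0. The list summed to 46.2 and 46.4 CPM in Runx3 +/+ and 30.4 to 35.6 CPM in Runx3 +/WRPW, most of it from Cd1d1. Hdac7 is also an endothelial gene, and of 7 thymic stroma markers Pecam1, which endothelium and some blood cells express, was 1.89-fold lower, while Pdgfra was at 0 in 4 libraries. The other stroma markers tested, Epcam (log2 0.34) and Col1a1 (log2 0.67), had values above 0 and did not pass. Both were highest in Runx3 +/WRPW library 2, at 7.66 and 4.30 CPM. In Runx3 +/WRPW libraries 1 and 3 both genes lay between the controls (2.62 and 4.84 CPM for Epcam, 2.15 and 0.480 CPM for Col1a1). Foxn1 was at 4.67 CPM in Runx3 +/WRPW library 2 and at no more than 0.046 CPM elsewhere. The stroma list summed to 188 and 149 CPM in Runx3 +/+ and to 104, 98.5 and 82.2 CPM in Runx3 +/WRPW, nearly all from Pecam1. The part of these genes and of the cell division genes in the difference of Hdac7 was not tested. In bulk RNA, fewer cells of a type and less RNA per cell cannot be told apart.

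The sirtuins, NAD-dependent deacetylases unrelated to the Hdac genes, showed no call: 0 of 5 passed the edgeR test, beside 13.6% of all tested genes. An unadjusted p under 0.05 was reached by 0 of them, beside 29.8% of all tested genes. Sirt7, a nucleolar enzyme and the most abundant per length, was at 159 and 172 CPM in Runx3 +/+ and at 173, 174 and 163 CPM in Runx3 +/WRPW. Sirt2, which acts mostly in the cytoplasm, was among the tightest values of the module, at 64.3 and 62.5 CPM against 62.5, 63.2 and 63.4 CPM. The 95% interval of its log2 fold change was -0.14 to 0.13. Sirt1 (log2 0.06), Sirt6 (log2 -0.07) and the mitochondrial Sirt3 (log2 0.23) also overlapped between the genotypes.

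The NCoR complex, the main partner of Hdac3, had 0 of 4 called, beside 13.6% of all tested genes, and log2 fold changes of -0.04 to 0.09. Gps2, a small subunit and the highest per length, was at 104 and 106 CPM in Runx3 +/+ and at 111, 114 and 109 CPM in Runx3 +/WRPW, with no overlap but an interval of its log2 fold change from -0.05 to 0.22 (edgeR adjusted p = 0.353). The scaffold Ncor1 was at 751 and 792 CPM against 767, 693 and 795 CPM, fully overlapping, with an interval of -0.23 to 0.16. The beta-propeller subunits Tbl1x and Tbl1xr1 had log2 fold changes of -0.04 and 0.04. Over these 4 genes the 95% intervals reached from -0.23 to 0.24.

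The Sin3 complex, in which Sin3a or Sin3b is the scaffold for Hdac1 and Hdac2, had 0 of 5 called, beside 13.6% of all tested genes. Sin3a, the highest per length, was at 161 and 155 CPM in Runx3 +/+ and at 157, 143 and 158 CPM in Runx3 +/WRPW, and Sin3b at 156 and 159 CPM against 150, 160 and 157 CPM. Both overlap, with intervals of the log2 fold change from -0.22 to 0.12 and from -0.16 to 0.13. Suds3, which holds the deacetylases to the scaffold, was at 112 and 152 CPM against 105, 105 and 115 CPM, so Runx3 +/+ library 1 lies among the altered libraries. It did not pass (edgeR adjusted p = 0.202), though it did without Runx3 +/+ library 1. The accessory subunits Sap18 and Sap30 had log2 fold changes of 0.24 and -0.08.

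In the CoREST complex, which joins Hdac1 and Hdac2 to the histone demethylase Kdm1a through an Rcor scaffold, the scaffold Rcor3 rose. Rcor3 (chromosome 1, 192098546 to 192138074) was at 15.04 and 15.07 CPM in Runx3 +/+ and at 24.6, 24.4 and 23.6 CPM in Runx3 +/WRPW. The libraries of each genotype lie close together and the genotypes far apart. The log2 fold change was 0.68 ± 0.09 (SE), or 1.61-fold higher (95% interval 1.38 to 1.87; edgeR adjusted p = 0.00742), and it was 0.66 to 0.70 in the fits that left out 1 library. Antisense and unclassified genes on the opposite strand overlap the Rcor3 exons, the largest, Gm26879, over 4.90% of them.

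Rcor3 remained a minor scaffold: per length it was at 1.11 and 1.77 CPM per kilobase in the genotypes, against 30.2 and 31.3 for Rcor1. The annotated exons of Rcor3 span 13622 bases and those of Rcor1 5684, which widens the gap. In plain CPM the means were 15.1 and 24.2 for Rcor3 against 172 and 178 for Rcor1. Rcor1 did not pass (log2 0.05, 95% interval -0.16 to 0.25). Rcor2 was low, at 4.997 and 6.75 CPM against 3.57, 4.30 and 3.86 CPM, without overlap, and its log2 fold change of -0.59 ± 0.22 (SE) did not pass (edgeR adjusted p = 0.136). Kdm1a was at 109 and 109 CPM against 96.4, 87.5 and 99.4 CPM, also without overlap and without a call (log2 -0.20, 95% interval -0.38 to -0.03; edgeR adjusted p = 0.118).

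**Figure D4:**
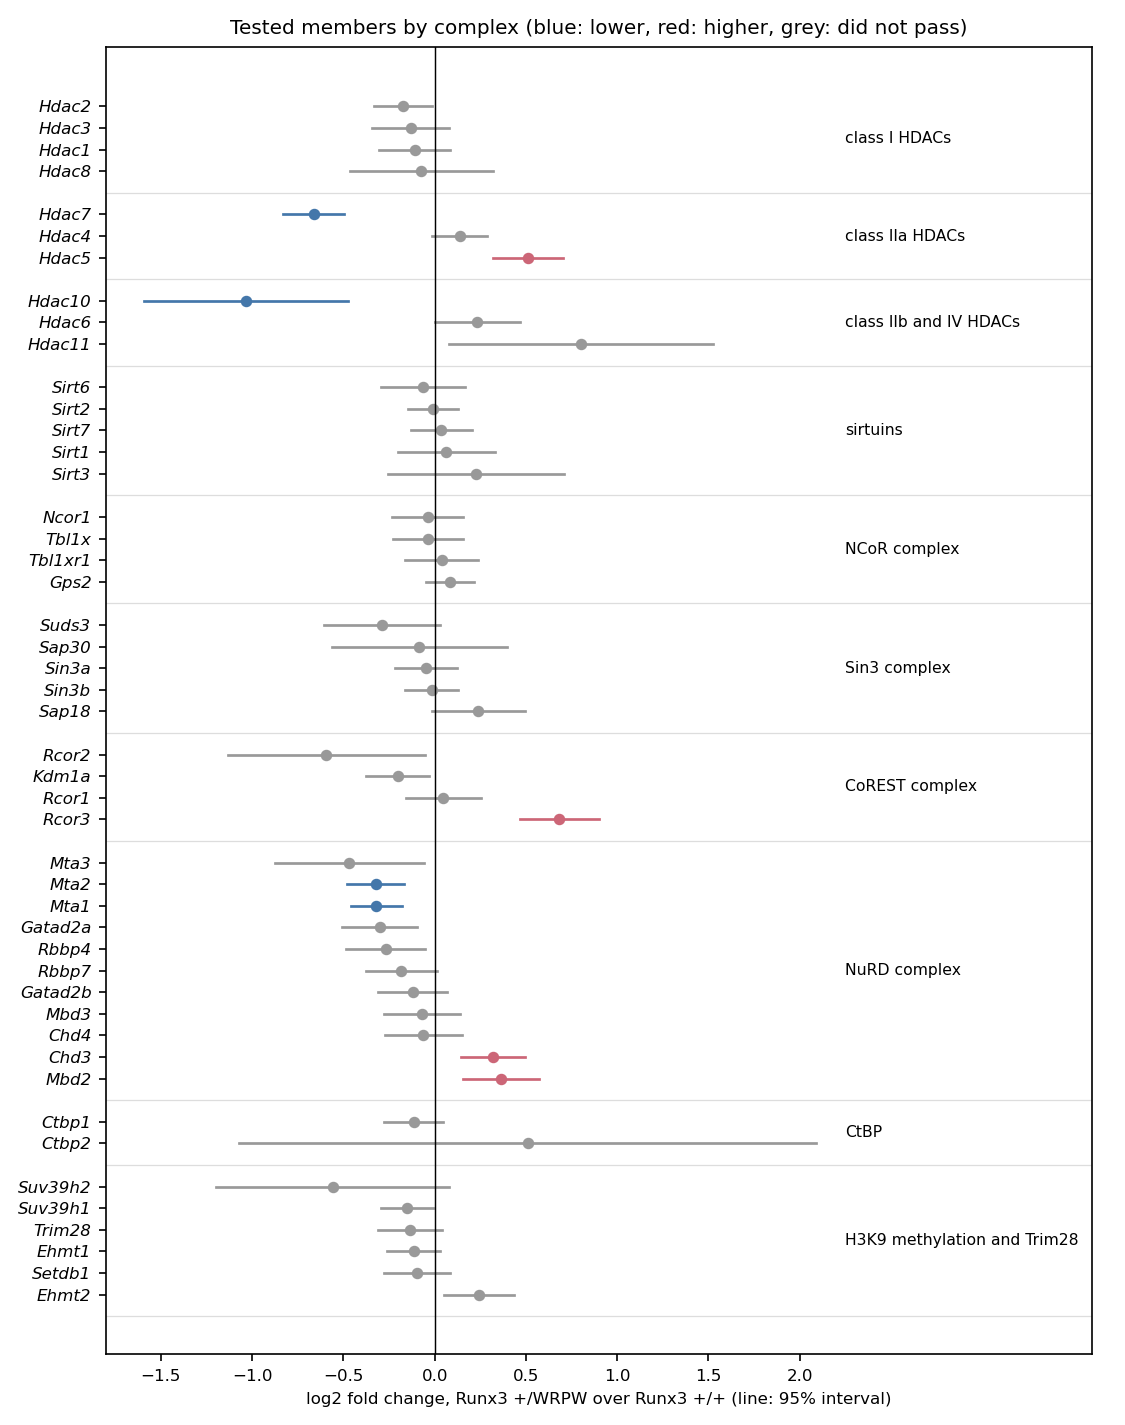
Log2 fold change of the 47 tested members, Runx3 +/WRPW over Runx3 +/+, by role group, with the 95% interval of the fit as a line; blue was called lower, red higher and grey did not pass. NuRD, the largest group at 11 genes, holds 4 of the 8 calls, and the smaller sirtuin, NCoR, Sin3 and CtBP groups hold 0. Of all tested genes 13.6% were called, and no difference between groups was tested.

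NuRD, which couples a chromatin remodeller to Hdac1 and Hdac2, is the largest group here with 11 genes, of which 2 were lower and 2 higher, beside 13.6% of all tested genes called; no difference from the other groups was tested. Its subunits come as alternative paralogs: the ATPases Chd3 and Chd4, the methyl-CpG-binding-domain proteins Mbd2 and Mbd3, the scaffolds Mta1, Mta2 and Mta3, the bridging proteins Gatad2a and Gatad2b, and the histone chaperones Rbbp4 and Rbbp7. The summed level of the 11 genes overlapped between the genotypes, at 754 and 755 CPM per kilobase in Runx3 +/+ and 763, 717 and 759 in Runx3 +/WRPW. Within it, 7 genes lay below and 2 above the controls without overlap, beside 23.8% and 24.7% of all tested genes.

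Both called scaffolds fell by nearly the same amount. Mta2 (chromosome 19, 8941920 to 8952300) was at 380 and 402 CPM in Runx3 +/+ and at 322, 310 and 306 CPM in Runx3 +/WRPW, a log2 fold change of -0.32 ± 0.06 (SE; edgeR adjusted p = 0.0264). Mta1 (chromosome 12, 113098248 to 113137206) was at 150 and 146 CPM against 123, 119 and 115 CPM, with a log2 fold change of -0.32 ± 0.06 (SE; edgeR adjusted p = 0.0206). Neither overlaps between the genotypes. Both calls were lost in each of the 5 fits that left out 1 library (adjusted p = 0.0506 to 0.123 for Mta2 and 0.0517 to 0.0806 for Mta1), at log2 fold changes of -0.36 to -0.28 and -0.35 to -0.30.

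Mta3 was at 84.2 and 124 CPM against 71.8, 70.5 and 83.7 CPM. The log2 fold change of -0.47 ± 0.17 (SE) did not pass (edgeR adjusted p = 0.126), with Runx3 +/+ library 2 far above Runx3 +/+ library 1, and it passed when the latter was left out. Together the Mta transcripts were at 163 ± 8.02 CPM per kilobase (SD, n = 2) in Runx3 +/+ and 129 ± 2.52 (SD, n = 3) in Runx3 +/WRPW. The promoter windows of Mta1 (chr12:113098028-113098327, plus strand) and Mta2 (chr19:8941670-8941969, plus strand) are shown because these genes fell together, with capitals as above and again 5′ to 3′:
Mta1: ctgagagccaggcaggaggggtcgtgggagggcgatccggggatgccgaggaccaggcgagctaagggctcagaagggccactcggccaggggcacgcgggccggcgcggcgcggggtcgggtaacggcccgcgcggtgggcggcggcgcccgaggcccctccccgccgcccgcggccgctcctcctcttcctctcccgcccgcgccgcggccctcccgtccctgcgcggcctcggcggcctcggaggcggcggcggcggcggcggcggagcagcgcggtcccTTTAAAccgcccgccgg
Mta2: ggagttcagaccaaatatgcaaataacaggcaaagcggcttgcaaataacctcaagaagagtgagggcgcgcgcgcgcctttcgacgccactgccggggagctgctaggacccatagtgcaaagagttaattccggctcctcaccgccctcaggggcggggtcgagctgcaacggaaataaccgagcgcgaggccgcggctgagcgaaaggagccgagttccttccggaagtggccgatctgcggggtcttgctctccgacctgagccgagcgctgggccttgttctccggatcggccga
The Mta1 window holds TTTAAA at 33 bases from the start and the Mta2 window none of the 4 motifs. The windows had a GC content of 81.0% and 61.7%.

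In the remodeller pair and in the pair of Mbd2 and Mbd3, 1 gene rose and its paralog did not pass. Chd3 (chromosome 11, 69343273 to 69369499) was at 1336 and 1188 CPM in Runx3 +/+ and at 1592, 1555 and 1578 CPM in Runx3 +/WRPW, a log2 fold change of 0.32 ± 0.07 (SE), or 1.25-fold higher (edgeR adjusted p = 0.038). Its partner paralog Chd4 overlapped, at 1093 and 1040 CPM against 1095, 931 and 1040 CPM (log2 -0.06, 95% interval -0.27 to 0.15). Mbd2 (chromosome 18, 70568225 to 70629134), which binds methylated DNA, was at 244 and 213 CPM against 282, 289 and 311 CPM, or 1.29-fold higher (log2 0.36 ± 0.09, SE; edgeR adjusted p = 0.0429). Mbd3, which lacks that binding, overlapped (log2 -0.07, 95% interval -0.28 to 0.14). The calls of Chd3 and Mbd2 held without Runx3 +/+ library 1 and were lost without any other single library (adjusted p = 0.0753 to 0.166 and 0.0718 to 0.187).

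The share of Chd3 in the Chd3 and Chd4 pair, per length, was 53.7% and 52.0% in Runx3 +/+ and 58.0%, 61.3% and 59.0% in Runx3 +/WRPW. That of Mbd2 in the Mbd2 and Mbd3 pair was 51.1% and 43.6% against 53.8%, 54.8% and 55.5%. Gatad2a held 61.4% and 62.9% of its pair against 59.6%, 59.2% and 58.8%. These 3 pairs do not overlap between genotypes, while the Rbbp4 share did, at 30.4% and 30.9% against 27.9%, 29.1% and 31.2%. Of 10 paralog pairs in the module, 6 did not overlap, with the first-named gene's share above the controls in 3 and below in 3. For levels of single genes, 48.5% of all tested genes did not overlap. The same share was not computed for pairs across the table. Chd3 and Mbd2 were also called on their own, so the shares of their pairs are not separate observations. The paralog shares too are descriptions, without a test.

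**Figure D5:**
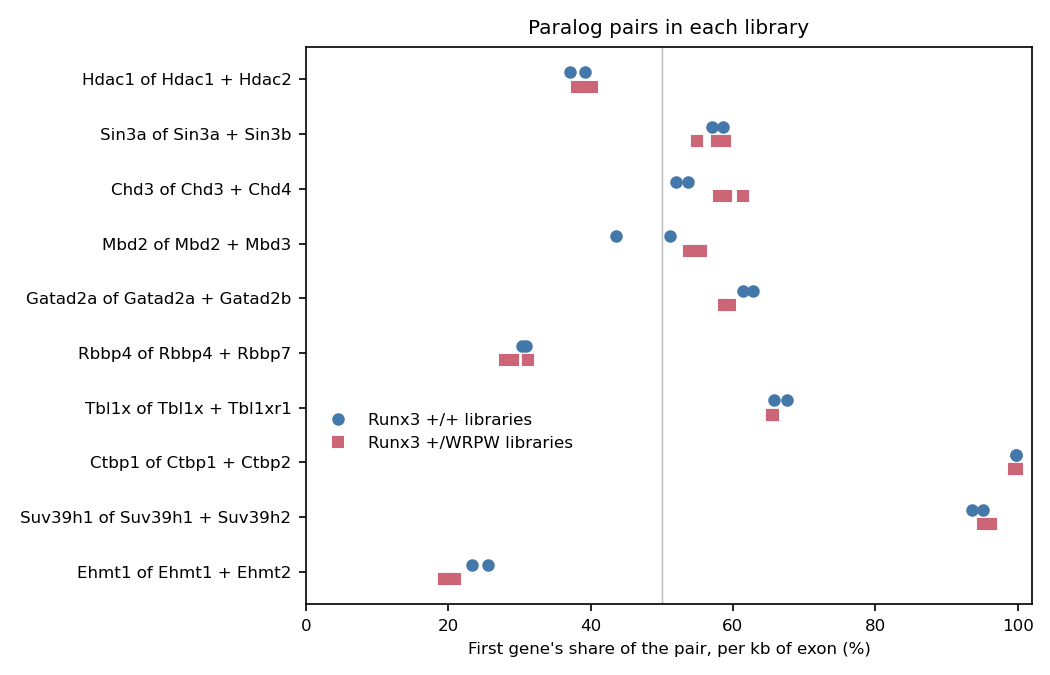
Share (%) of each pair's CPM per kilobase held by the gene named first, blue circles for the 2 Runx3 +/+ libraries and red squares for the 3 Runx3 +/WRPW libraries. The Chd3 and Mbd2 shares lie higher in all 3 Runx3 +/WRPW libraries and the Ehmt1 share lower, and the vertical line marks equal shares.

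Of the remaining NuRD genes, Gatad2a and Rbbp4 came nearest to the threshold. Gatad2a was at 196 and 220 CPM against 174, 157 and 175 CPM (log2 -0.30 ± 0.08, SE; edgeR adjusted p = 0.0697), and Rbbp4 at 257 and 273 CPM against 221, 201 and 238 CPM (log2 -0.27 ± 0.09, SE; edgeR adjusted p = 0.102). DESeq2 called both lower. Rbbp7 (log2 -0.18) and Gatad2b (log2 -0.12) did not pass in either. Rbbp4 and Rbbp7 also serve chromatin assembly in dividing cells, and the fall of the 18 division markers stands beside their values; its part was not tested.

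The CtBP corepressors, docking proteins for repressors with a PxDLS motif, were represented almost wholly by 1 gene. Ctbp1 was at 291 and 317 CPM in Runx3 +/+ and at 284, 278 and 281 CPM in Runx3 +/WRPW, without overlap and without a call (log2 -0.11, 95% interval -0.28 to 0.05; edgeR adjusted p = 0.309). Ctbp2 was at 0.794 to 0.799 CPM in the controls and below 1 CPM in Runx3 +/WRPW libraries 1 and 3, and reached 2.05 CPM in library 2. Ctbp1 held 99.5% to 99.8% of the pair in every library.

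The heterochromatin group, Trim28 with the histone methyltransferases that act with it or beside it, had 0 of 6 called, beside 13.6% of all tested genes. Trim28, the corepressor of zinc finger proteins, was at 376 and 377 CPM in Runx3 +/+ and at 344, 322 and 362 CPM in Runx3 +/WRPW, without overlap (log2 -0.14, 95% interval -0.31 to 0.04; edgeR adjusted p = 0.265). Its partner enzyme Setdb1 overlapped, with a log2 fold change of -0.10. Suv39h1, the X-linked methyltransferase of constitutive heterochromatin, was at 89.2 and 88.6 CPM against 82.0, 76.9 and 81.2 CPM (log2 -0.15, 95% interval -0.29 to -0.01; edgeR adjusted p = 0.148). On the opposite strand, the antisense gene Gm14820 overlaps 14.6% of the Suv39h1 exons. Suv39h2 was at 3.88 and 5.12 CPM against 3.13, 2.55 and 3.45 CPM.

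Ehmt1 and Ehmt2 encode the partners of a methyltransferase heterodimer that acts in euchromatin. Ehmt2 was at 290 and 252 CPM in Runx3 +/+ and at 313, 321 and 328 CPM in Runx3 +/WRPW, with no overlap and a log2 fold change of 0.24 ± 0.08 (SE; edgeR adjusted p = 0.102). DESeq2 called it higher. Ehmt1 had a log2 fold change of -0.12 (95% interval -0.26 to 0.03). The share of Ehmt1 in the pair, per length, was 23.3% and 25.6% against 21.0%, 19.4% and 20.0%.

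Promoter windows were found for 42 of the 48 members, 56 windows in all. The E2F letters were in 0 of them, beside 1.56% of the 32851 windows of the table. CHR letters were in 17.9% of member windows beside 27.6% of all windows, CCAAT in 42.9% beside 37.4%, and Runx letters in 16.1% beside 16.8%. Among the 12723 windows of tested genes the shares were 2.83% for E2F, 20.1% for CHR, 37.6% for CCAAT and 13.3% for Runx, so the Runx share of the members lay below that of all windows and above that of tested genes. The Runx letters were in 0 of the 6 windows of 3 lower genes, 0 of the 2 windows of 2 higher genes and 9 of the 46 windows of genes not called, all counted per window. Hdac10, Chd3 and Mbd2, 3 of the 8 called members, are not among them, and 4 of the 6 windows of lower genes belong to Hdac7, a pair of them overlapping. These are descriptions of short letter strings in 1 window size.

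Lists from the wider pathway are read beside the 13.6% of all tested genes called. Of 28 further deacetylase complex subunits and corepressors, 2 fell (Gse1 and Nrip1) and 1 rose (Lcor), and the list had a median log2 fold change of -0.06. Gse1, found with CoREST-type complexes, was 1.66-fold lower, from 185 ± 34.5 to 111 ± 0.976 CPM (edgeR adjusted p = 0.0118), and Nrip1, a corepressor of nuclear receptors, 1.44-fold lower (edgeR adjusted p = 0.0136). Lcor, another ligand-dependent corepressor, was 1.38-fold higher (edgeR adjusted p = 0.0444). Of 14 histone acetyltransferases and coactivators, which oppose the deacetylases, 0 passed the edgeR test and 2 had an unadjusted p under 0.05, with a median of 0.01. Of 10 heterochromatin readers and demethylases, the histone chaperone gene Daxx was lower by 1.42-fold (edgeR adjusted p = 0.033) and 9 did not pass.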

How the data were processed

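Each library came as 1 deposited file of whole-number counts, by gene symbol and not normalized. The submitters' processing notes name mm10 and 4 tools: edgeR 3.36.0, featureCounts 2.0.8, HISAT2 2.2.1 and cutadapt 4.0. Annotation, strandedness and the handling of multiply mapped reads were not given in the sources used here. The header of the file of Runx3 +/+ library 2 bears another number and that of Runx3 +/WRPW library 2 an aligner's name, so files were assigned by the sample records.

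Libraries were compared in R 4.3.3 with edgeR 4.0.16 (filterByExpr with a minimum count of 10, TMM factors of 0.981 to 1.034, glmQLFit, glmQLFTest). SEs were obtained from each gene's F statistic and log2 fold change, and intervals are at 95% from the same fit. Levels are TMM-scaled CPM. Coordinates and promoters are from RefSeq for GRCm38.p6 (48 of 48 members matched by symbol), and exon lengths and overlaps from GENCODE on the same assembly. Members, lists and tests were chosen with earlier results of these data known; all 8 called members, the highest member per length in each group and members below the filter are named by rule, the HDAC family shares and summed levels were chosen after values were seen, and others are given as values. Alternatives were DESeq2 1.42.0, limma-voom (limma 3.58.1), RLE and upper-quartile factors, other filters, robust dispersion, glmTreat at a fold of 1.2, a replicate block, and leaving out each library. With no filter 28583 genes were tested and with the filter of 1 CPM 11872, and the other alternatives tested the same 13666. Where a fit left a lone Runx3 +/+ library, that library is assumed to vary like the other genotype. Library totals over all rows were an alternative added after seeing the data.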

Additional observations from a re-analysis of the deposited data

How the results depend on the processing

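The 8 members called numbered 4 lower and 4 higher with RLE, upper-quartile factors, limma-voom, robust dispersion, the stricter filter and totals over all rows, and 6 and 5 with DESeq2. No called member changed sign in any of the 15 alternatives. Of all genes 1855 were called, and with no low-count filter 1079, with 2 members lower and 2 higher; with glmTreat 866, with 1 lower and 2 higher, as a minimum fold was added to the test. DESeq2 called 2705 genes. With the replicate block 754 genes were called, with 1 member lower (Hdac7) and 0 higher. That fit spends more terms on the same 5 libraries. Runx3 +/WRPW library 3, without a same-numbered control, adds nothing to its estimate of the genotype difference. Same-numbered libraries did not deviate together (r = -0.0492 for libraries 1 and 0.00244 for libraries 2), so the numbers are not taken as pairs. Leaving out 1 library gave 677 to 1294 genes or, without Runx3 +/WRPW library 2, 1347, with 1 to 4 members lower and 1 to 3 higher. The cause of these losses beyond fewer libraries was not tested. Sign changes were seen in 15 members, none of them called. With upper-quartile factors Sirt2 was at 0.0227 and Sin3b at 0.0161, and with the replicate block Sirt1 at -0.0196 and Rcor1 at -0.0092. Over the fits that left out 1 library, log2 fold changes of members whose sign turned were as follows: Chd4 ran from -0.125 to 0.00413, Ctbp2 ran from -0.175 to 0.803, Hdac8 ran from -0.231 to 0.104, Mbd3 ran from -0.185 to 0.0626, Ncor1 ran from -0.0802 to 0.0191, Rcor1 ran from -0.00668 to 0.113, Sap30 ran from -0.303 to 0.179, Sirt1 ran from -0.0374 to 0.174, Sirt2 ran from -0.0287 to 0.0122, Sirt3 ran from -0.0589 to 0.572, Sirt6 ran from -0.143 to 0.0169, Sirt7 ran from -0.0194 to 0.0958, Tbl1x ran from -0.0729 to 0.027 and Tbl1xr1 ran from -0.0249 to 0.105.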
